A study of Mus musculus with 30 samples.

Results

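A pair of mouse models with too little platelet-derived growth factor B at the vessel wall were compared here by asking, gene by gene, whether brain microvessels responded alike. The quantity reported is a difference of effects, namely the change from control to mutant in pdgfbret/ret mice minus the change from control to mutant in the cerebrum of Tie2Cre, R26P+/0, pdgfb-/- mice. It rests on 16 of the 30 arrays of the series, 4 in each of 4 groups, and was taken for 11242 of the 18193 genes on the array. Each gene was represented by the probe set paired with that gene alone that had the highest mean over all arrays, and was kept if that probe set exceeded a log2 signal of 4 on at least 3 arrays.

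Endothelial cells of growing vessels release platelet-derived growth factor B, and pericytes and smooth muscle cells, the mural cells of the vessel wall, follow it through their receptor Pdgfrb. A retention motif at the end of the ligand binds it to heparan sulphate near the cell that made it, and without the motif the ligand is made but drifts away. Pericytes in turn keep the endothelium of brain capillaries quiet and hold the end-feet of astrocytes in place around the vessel.

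In the first model both alleles of the gene lacked the motif (pdgfbret/ret, here ret mutants), and the controls carried 1 such allele (pdgfbret/+, ret controls). These mice were on C57/B6/J and 7 to 10 months old, and which part of the brain was taken is not labelled. In the other model the mouse gene was absent and a human PDGF-B transgene at the Rosa 26 locus, 1 copy, was switched on by Tie2-driven Cre, which acts in endothelium and also in blood cells (R26P mutants). Its controls had the normal mouse gene and the same transgene left silent (R26P+/0, pdgfb+/+, R26P controls). These mice were of mixed C57/SV129 background, and their labels give 1 year in one place and 2 months in another. The transgene is thus expressed in cells in which Tie2 has driven Cre. Strain, age and the genotype of the controls differ between the models, and whether the brain region does is not known, so that these cannot be told apart from the form of the mutation in any difference given below. RNA came from microvascular fragments, pieces of vessel wall with attached cells, and in such bulk RNA a fall in a cell type's transcripts can mean fewer of its cells or less RNA per cell, which cannot be told apart.

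The labels were first checked on the arrays. Mouse Pdgfb read 12.73, 12.86, 12.51 and 12.53 on the log2 scale in the 4 R26P controls and 4.73, 6.45, 8.01 and 4.73 in the R26P mutants, and it lay between 11.71 and 12.51 on all 8 ret arrays, where the altered allele is still transcribed and the array therefore checks nothing. Cldn5, the tight junction protein of brain endothelium, lay between 15.43 and 15.92 on the 16 arrays. Gh, growth hormone of the pituitary, exceeded 8 on ret mutants 1, 2 and 4, R26P controls 2 and 3 and R26P mutants 2 and 3, and on no ret control. A list of 11 pituitary genes had means of 3.05 to 3.59 in ret controls, 3.18 to 11.05 in ret mutants, 3.89 to 8.56 in R26P controls and 3.30 to 10.57 in R26P mutants. Xist and the Y-linked Eif2s3y contradicted the sex label on all 4 ret controls. The array of R26P mutant 3 correlated at 0.9991 with the cerebellum array of the same number, the highest value of any pair in the series. Without that array 378 genes in place of 376 were called different.

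Both models changed many transcripts. A gene was called where the limma test, adjusted over all 11242 genes, gave a value below 0.05. In ret mutants 1001 genes were higher (8.90%) and 1162 lower (10.3%), and in R26P mutants 1280 were higher (11.4%) and 1391 lower (12.4%). Both tests called 1042 genes, and 97.7% of these had the same sign. The 1018 genes called with the same sign, termed shared, made up 47.1% of the genes called in ret mutants and 38.1% of those called in R26P mutants. Of these, 454 were higher in both models (4.04% of all genes) and 564 were lower (5.02%). In 24 genes (0.213%) the signs were opposite. Without any test, 1028 genes (9.14%) had mutant and control arrays that did not overlap in either model and moved the same way. Over all genes the effects correlated with a Pearson coefficient of 0.58 and a Spearman coefficient of 0.42, a description only, since genes are not independent and all 16 arrays share 1 normalization.

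**Figure D1:**
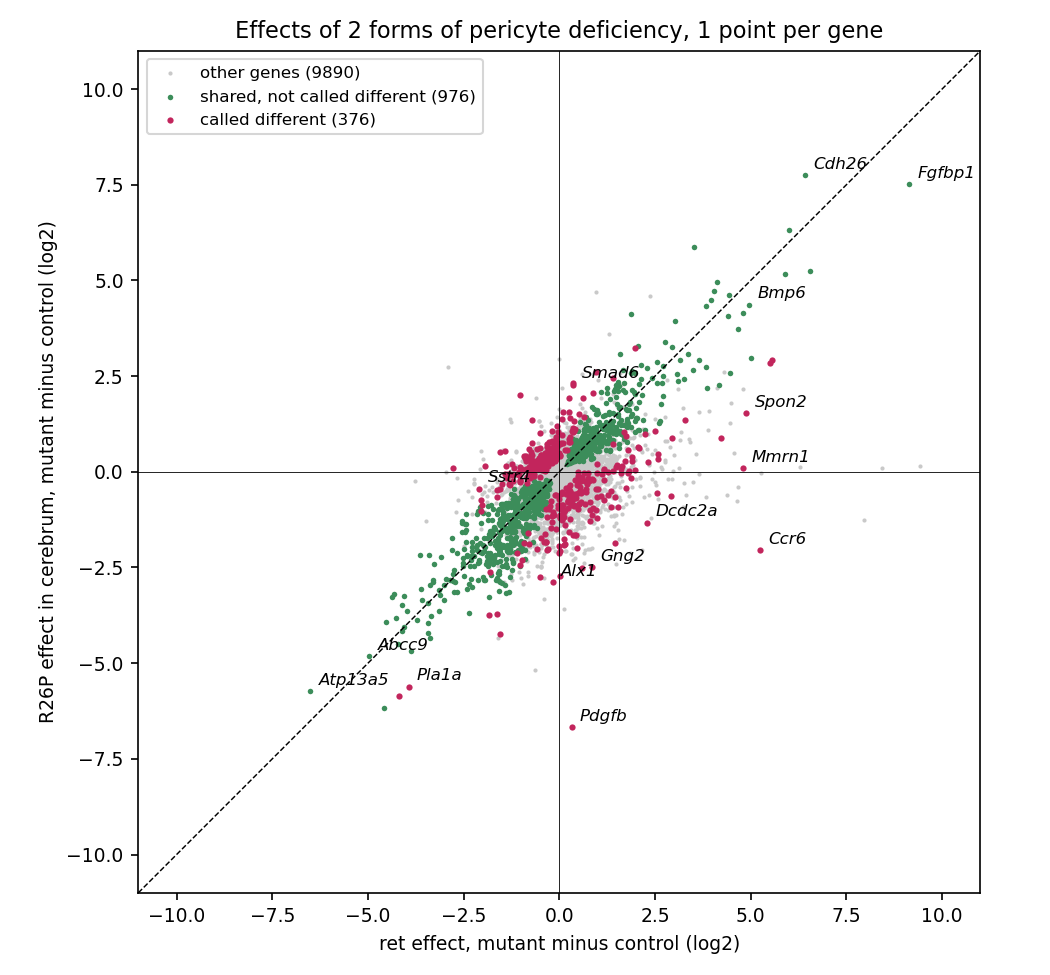
Each point is 1 of 11242 genes, placed by its ret effect (horizontal) and its R26P effect in cerebrum (vertical), both as mutant minus control in log2 units, with the dashed line where both are equal. Genes shared and not called different (976) lie along the line out to Fgfbp1 and Atp13a5, and the 376 genes called different lie off it, Ccr6 and Pdgfb farthest below.

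The shared losses were led by genes of pericytes. Abcc9 and Kcnj8, the sulphonylurea receptor and the pore subunit of the pericyte ATP-sensitive potassium channel, fell in both. Abcc9 read 11.40, 11.89, 12.44 and 11.52 in ret controls and 6.88, 6.83, 6.40 and 7.29 in ret mutants, against 12.68, 13.04, 12.62 and 12.39 in R26P controls and 8.04, 7.94, 8.55 and 6.92 in R26P mutants. All mutants lay below all controls, and the fall was 31.2-fold in ret mutants and 28.2-fold in R26P mutants. The difference of the effects was -0.14 with a 95% interval of -1.09 to 0.80. Pdgfrb, the receptor itself, fell 9.82-fold and 7.40-fold, with a difference of -0.41 (-1.14 to 0.32).

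Atp13a5, a P-type ATPase of brain pericytes, showed the deepest shared fall by the smaller of its effects. It dropped from 10.17, 10.72, 10.75 and 10.49 to 3.22, 4.06, 4.58 and 4.21 in the ret model and from 11.09, 11.34, 10.65 and 10.79 to 5.48, 6.60, 6.32 and 2.56 in the R26P model. The R26P mutants spread over 4 log2 units here, and the interval of the difference was accordingly wide, -2.75 to 1.18 around -0.79. Vstm4 fell by 4.21 and 4.51, the receptor gene P2ry14 by 4.28 and 3.81, and Nodal, a TGF-beta family ligand, by 4.10 and 4.17 (2.05 and 2.09 with its probe sets averaged). Lama2, a laminin chain of mural basement membrane, fell by 4.52 and 3.92, although its ret mutants lay near the lower end of the scale. Of 27 pericyte genes measured, 25 were lower in each model and 24 in both.

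The shared gains included secreted signals of endothelium. Bmp6, a bone morphogenetic protein, read 8.23, 8.54, 9.05 and 8.68 in ret controls and 13.56, 13.55, 13.70 and 13.50 in ret mutants, and 9.60, 9.53, 8.90 and 9.16 in R26P controls and 13.57, 13.72, 13.66 and 13.71 in R26P mutants. The 8 mutants of both models all lay between 13.50 and 13.72, a rise of 30.9-fold in the first and 20.6-fold in the second. Apln, the apelin ligand of tip cells, rose 16.5-fold and 26.3-fold, and Angpt2, the angiopoietin that antagonises Tie2 signalling, rose 10.2-fold and 8.50-fold.

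The largest shared gains included genes with low signal in controls. Fgfbp1, a carrier of fibroblast growth factors, lay between 2.71 and 4.25 on the 8 control arrays, at 12.19, 12.73, 12.98 and 11.67 in ret mutants and at 11.03, 11.01, 10.49 and 10.80 in R26P mutants. All ret mutants stood above all R26P mutants, but the difference of the effects, 1.61 (0.46 to 2.75), missed the threshold at an adjusted p of 0.105. Gpr143, a G protein-coupled receptor of pigment cells, lay at 2.21 to 3.27 in the controls of both models and reached 8.21 to 9.51 in ret mutants and 7.95 to 9.30 in the other mutants. The cadherin Cdh26 rose by 6.42 and 7.75, the organic anion carrier Slco1a5 by 6.56 and 5.24, the actin-binding Ablim3 by 4.68 and 3.74, and the cytochrome Cyp4b1 by 3.82 and 2.74, from control signals of 2.70 (Slco1a5) to 8.26 (Cyp4b1). With probe sets averaged the rises of Slco1a5 were 3.51 and 2.72. The interval of the difference was 0.17 to 2.48 for Slco1a5, 0.29 to 1.60 for Ablim3 and 0.20 to 1.96 for Cyp4b1, each above 0, and -3.00 to 0.34 for Cdh26. None passed after adjustment over all genes, with adjusted p from 0.0981 for Ablim3 to 0.334 for Cdh26.

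**Figure D2:**
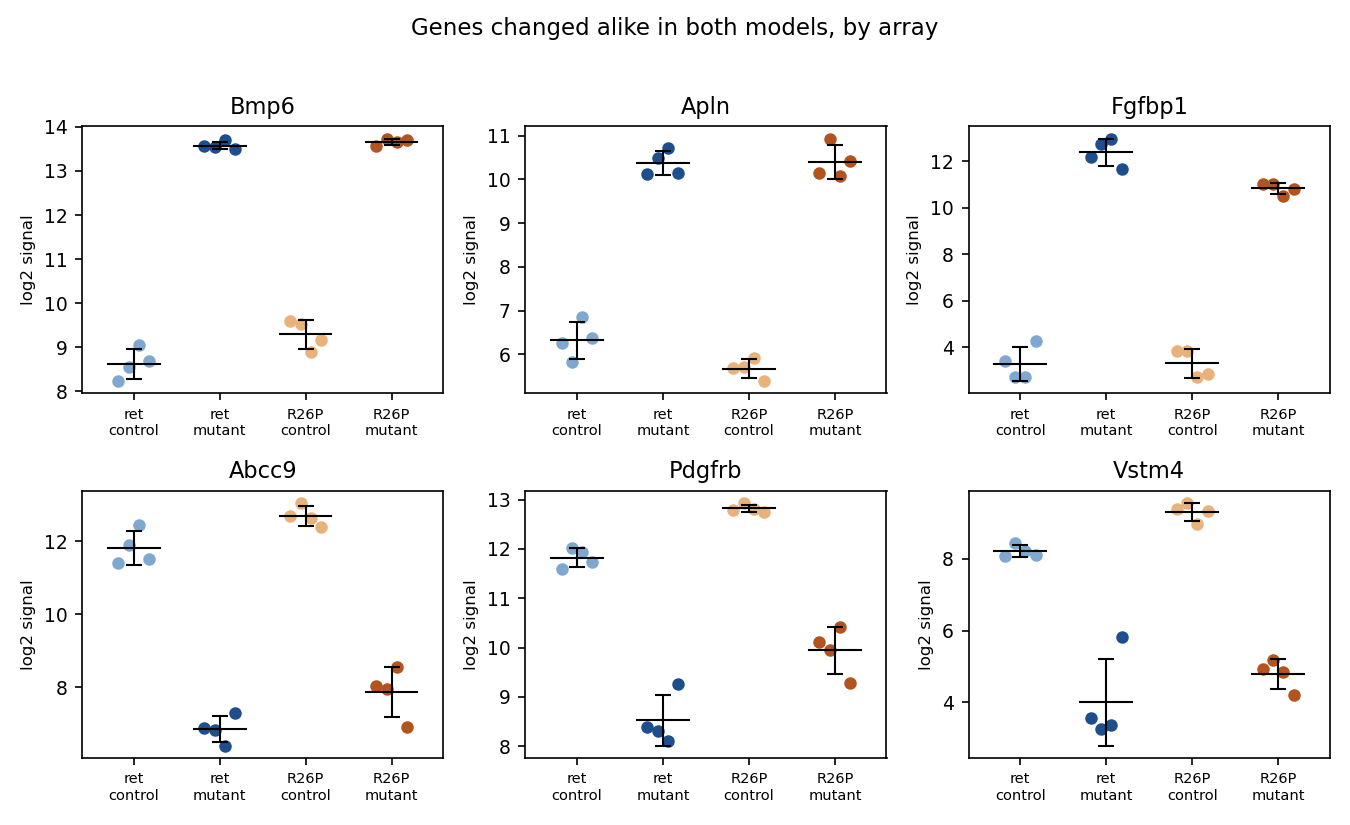
Log2 signal of 6 shared genes on each of the 16 arrays (dots), by group, with the mean (line) and SD (bars, n = 4). Bmp6, Apln and Fgfbp1 rose and Abcc9, Pdgfrb and Vstm4 fell in both models, and no mutant array overlaps the controls of its model.

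How closely shared effects matched was read from the interval of the difference. Median effects of the shared genes were 0.82 in ret mutants and 0.81 in R26P mutants for those higher, and -1.12 and -1.11 for those lower. Of the 1018 shared genes, 976 were not called different, and in 598 of these (61.3%) the 95% interval of the difference lay within 1 log2 unit of 0, compared with 7934 of all genes tested (70.6%). For the remaining shared genes a difference of 2-fold remained inside the interval. The median standard error of the difference over all genes was 0.20. A further 2750 genes were called in 1 model alone, and 2443 of them were not called different, so a call in 1 model alone was in most cases not a call of a difference.

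The effects differed in 376 genes (3.34%). In 188 the ret effect was more positive (1.67%) and in 188 more negative (1.67%). By the tests of each model, 146 of the 376 were called in ret mutants alone (60 higher, 86 lower), 161 in R26P mutants alone (71 higher, 90 lower), 42 in both with the same sign, 24 in both with opposite signs, and 3 in neither. A difference of at least 2-fold was found in 188, of which 131 had the more positive effect in ret mutants and 57 the more negative. In 68 of the 376 (18.1%) the 2 control groups themselves lay at least 1 log2 unit apart, as they did in 7.5% of all genes. Counts of the difference were less stable than those of the single effects: leaving out 1 array gave 127 (without ret control 1) to 611 genes (without R26P mutant 4). Of 53 genes named below as called different, 35 remained called whichever single array was left out, and the 18 others are marked as lost where they appear. Other settings ended more calls: of the 53, 35 were lost without the 7 arrays with Gh above 8 (the Gh arrays), 23 with the pituitary genes as a covariate, 21 with the labelled sex as a covariate, 18 with no filter on low values, 8 with R26P cerebellum arrays, 6 with the probe sets of a gene averaged, 3 with Xist as a covariate and 1 with array weights. The pituitary genes used as a covariate were Gh, Prl and Pomc, taken as their mean, and not the longer pituitary list. The labelled sex is contradicted by Xist and Eif2s3y on all 4 ret controls, so that covariate does not describe the sex of those arrays. The 10 that kept the call under every setting in which they were tested were Dcdc2a, Gng2, Hhex, Khdrbs3, Klf4, Mmrn1, Pdgfb, Ror1, Smad6 and Unc5b. Mmrn1 was not tested in the setting that keeps genes with a mean signal above 6. Pdgfb is the mouse gene absent in R26P mutants, so its difference follows from the genotype. Averaging probe sets moved 19 differences by over 1.5 times, of which 16 remained called. Those not given with their genes were 1.92 for Dcdc2a, 2.36 for Mmrn1, 2.25 for Cpxm2, 1.67 for Spon2, 1.09 for Rnf180, 0.93 for B4galt6, -1.50 for Colec11, -1.04 for Lhx6, -0.79 for Zbtb7a, -0.77 for Slco2a1, -0.83 for Cdc20 and -0.48 for Fdps. With the cerebellum arrays Sdcbp2, Gadd45b, Fdps, Mlc1, Cmbl, Colec11, Alx1 and Slc1a2 were not called. Without the Gh arrays the difference of Ccr6 was 2.93 and that of Cmbl 1.69, neither called, and those of Cdh11, Smoc2 and Mmrn1 were 5.06, 5.22 and 2.88, all called.

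Genes that moved in opposite directions are given first. Dcdc2a, a doublecortin-domain protein of microtubules, read 5.67, 5.97, 6.26 and 5.39 in ret controls and 7.55, 8.17, 8.38 and 8.36 in ret mutants, but 7.37, 7.97, 7.59 and 7.68 in R26P controls and 6.89, 5.89, 5.61 and 6.88 in R26P mutants. Mutant and control arrays did not overlap in either model. The gene rose 4.91-fold in one and fell 2.52-fold in the other, a difference of 3.63 ± 0.42 (SE, adjusted p = 0.00081). R26P controls started about where ret mutants ended.

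The same crossing of levels was seen in Gng2, a gamma subunit of G proteins. Its 4 ret controls lay between 6.30 and 6.74 and the mutants at 7.18, 7.31, 6.96 and 7.75, whereas R26P controls lay between 6.72 and 7.38 and the mutants at 4.02, 4.10, 5.34 and 4.85. It rose 1.81-fold and fell 5.67-fold (difference 3.36 ± 0.38, adjusted p = 0.00081). Ror1, a receptor of Wnt5a, rose by 1.46 in ret mutants, where 1 mutant at 5.89 overlapped the controls, and fell by 1.85 in R26P mutants without overlap (difference 3.31 ± 0.57, adjusted p = 0.00898). When the probe sets of each gene were averaged, the differences were 1.22 for Gng2 and 1.10 for Ror1, both still called, and without the Gh arrays that of Ror1 was 4.77.

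Transcription factors and ubiquitin ligases were among the other genes of this kind. Hhex, a homeobox factor of early endothelium, was at 10.54 to 11.10 in ret controls and 11.75 to 12.35 in ret mutants, and at 11.16 to 11.98 in R26P controls and 10.73 to 11.31 in R26P mutants (difference 1.85 ± 0.27, adjusted p = 0.00392). Sox4, an HMG-box factor, rose by 1.09 and fell by 0.64, a difference of 1.72 that was 0.46 with probe sets averaged and was not called without the Gh arrays (adjusted p = 0.139). Mylip, the ligase that marks the LDL receptor for destruction, rose by 0.57 and fell by 0.79, small changes with little spread (difference 1.35 ± 0.18, adjusted p = 0.0023). Rnf180, another ligase, rose by 0.99 and fell by 1.20. B4galt6, which makes lactosylceramide, rose by 0.79 and fell by 0.99, and this call was lost without ret control 1 (adjusted p = 0.052).

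The reverse, a fall in ret mutants with a rise in R26P mutants, was found in Unc5b, a netrin receptor of arterial endothelium. Its signals were 11.49, 11.68, 11.68 and 11.62 in ret controls, 10.84, 10.76, 10.73 and 10.62 in ret mutants, 11.20, 11.31, 11.01 and 10.97 in R26P controls and 11.48, 11.81, 11.46 and 11.36 in R26P mutants. Groups did not overlap within either model (-0.88 and 0.40, difference -1.28 ± 0.15, adjusted p = 0.00081). Cd40, a receptor of the tumour necrosis factor family, fell by 0.78 and rose by 0.60, and the hyaluronidase Hyal2 fell by 0.58 and rose by 0.60. Lfng, the fringe enzyme that modifies Notch receptors, fell by 0.74 and rose by 0.52, near the lower end of the scale at 3.87 to 5.24 on all 16 arrays.

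**Figure D3:**
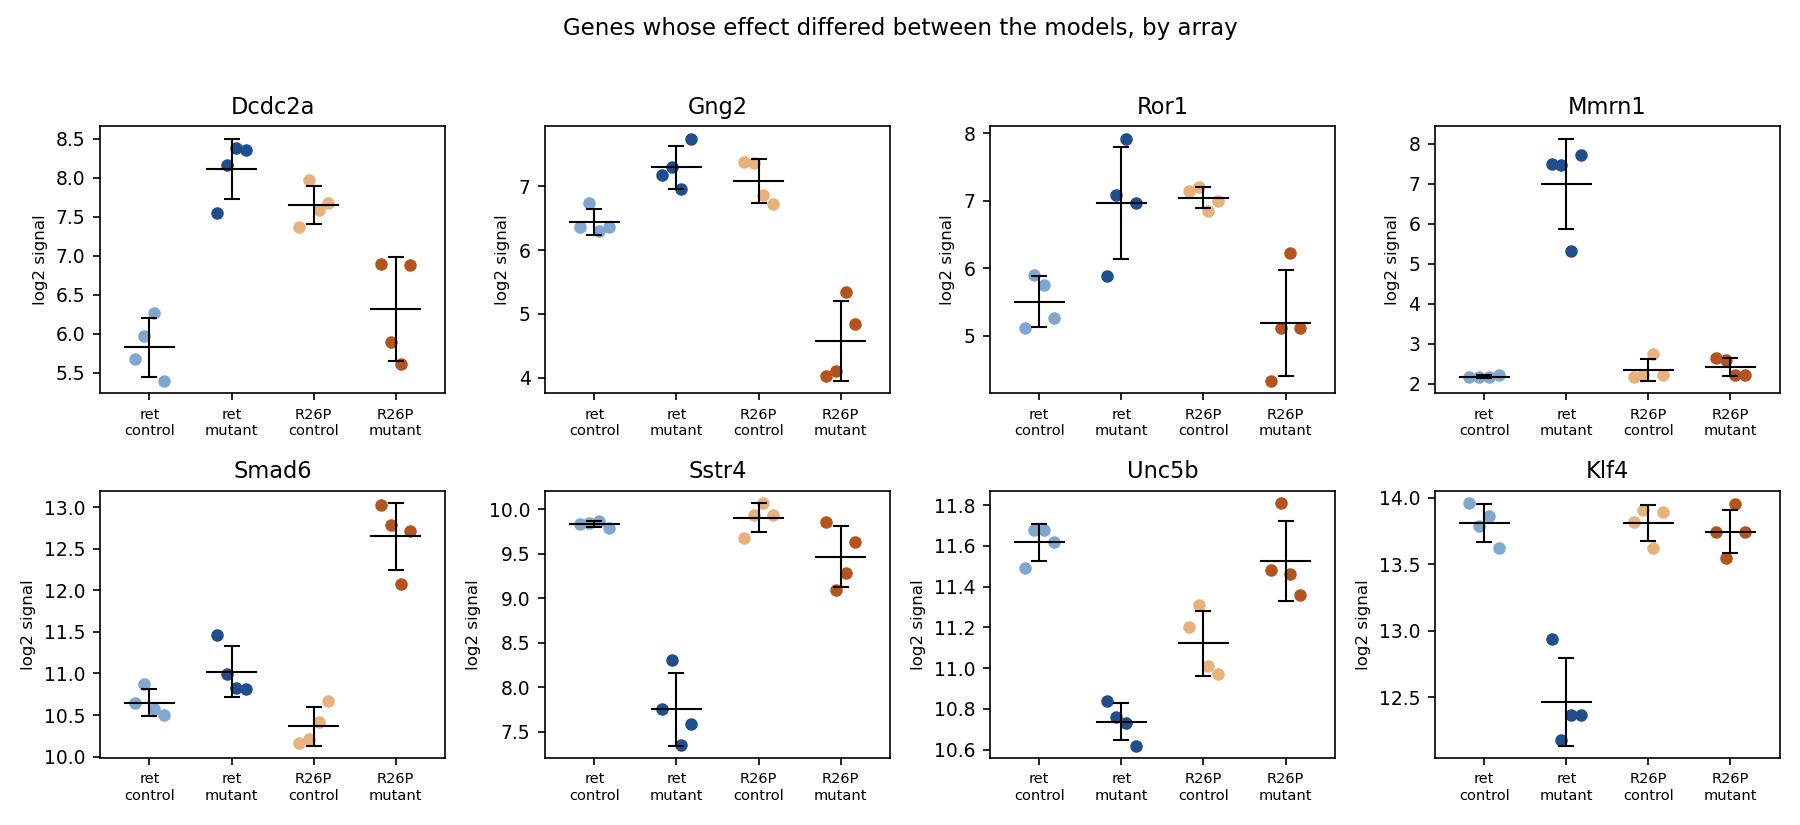
Log2 signal of 8 genes called different on each of the 16 arrays (dots), by group, with the mean (line) and SD (bars, n = 4). Dcdc2a, Gng2 and Ror1 rose in ret and fell in R26P mutants, Unc5b did the reverse, Mmrn1 rose and Sstr4 and Klf4 fell in ret mutants, and Smad6 rose in R26P mutants.

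Falls called in ret mutants alone included that of Sstr4, a somatostatin receptor. It was at 9.84, 9.85, 9.87 and 9.79 in ret controls and 7.75, 8.31, 7.35 and 7.59 in ret mutants, but at 9.68, 9.94, 10.07 and 9.94 in R26P controls and 9.86, 9.09, 9.29 and 9.63 in R26P mutants. The fall was 4.25-fold against 1.36-fold (difference -1.65 ± 0.27, adjusted p = 0.00764), and the R26P groups overlapped. With probe sets averaged the difference was -0.82. Klf4, a flow-responsive factor of endothelium, stood at 13.62 to 13.96 in ret controls and 12.18 to 12.94 in ret mutants, with 13.62 to 13.91 and 13.55 to 13.95 in the R26P groups (difference -1.28 ± 0.20, adjusted p = 0.0066). Its relative Klf2 fell by 1.06 in ret mutants, with -0.13 in R26P mutants. No test of that difference is given, and Klf2 is not among the 53 genes named as called different. Slc9a3r2, a scaffold of membrane transporters, was at 13.18 to 13.44 and 11.45 to 12.29 in the ret groups and at 13.29 to 13.84 and 13.32 to 13.49 in the R26P groups (difference -1.20 ± 0.24, adjusted p = 0.021). Sox13, a SOX factor, fell by 1.41 against a value of 0.55, and its call was lost without ret control 1 or R26P mutant 1 (adjusted p up to 0.058).

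Rises called in ret mutants alone included Khdrbs3, an RNA-binding splicing regulator. It lay between 5.14 and 5.65 in ret controls and 6.92 and 7.35 in ret mutants, whereas R26P controls (6.18 to 7.33) and mutants (5.98 to 6.31) overlapped. Its effects were 1.74 and -0.43 (difference 2.18 ± 0.30, adjusted p = 0.0023). Cdh11, a cadherin of mesenchymal cells, rose from 6.61 to 7.01 in ret controls to 8.16, 9.21, 11.02 and 8.78 in ret mutants, with a value of -0.55 in R26P mutants. Ret mutant 3, the 1 ret mutant without Gh signal, was the highest. The difference of 3.09 ± 0.61 (adjusted p = 0.0202) was lost when the probe sets of the gene were averaged (adjusted p = 0.0817). Cpxm2, of the carboxypeptidase X family, rose by 2.92 against -0.64, and the scavenger receptor Colec12 by 1.46 against -0.66. For both, R26P controls already lay above ret controls, with means of 6.94 against 4.31 for Cpxm2 and 7.11 against 5.88 for Colec12.

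R26P mutants alone gained Smad6, an inhibitor of bone morphogenetic protein signalling inside the cell. It read 10.16, 10.21, 10.42 and 10.67 in R26P controls and 13.02, 12.78, 12.08 and 12.71 in R26P mutants, and 10.65, 10.87, 10.57 and 10.50 in ret controls and 11.46, 10.99, 10.82 and 10.81 in ret mutants. The rise was 4.85-fold without overlap against 1.30-fold with overlap (difference -1.90 ± 0.28, adjusted p = 0.00358). Bmp6, in contrast, had risen to the same level in both. Cdc20, an activator of the anaphase-promoting complex, was at 8.34 to 8.97 in R26P controls and 9.86 to 10.62 in R26P mutants, against 8.74 to 8.84 and 8.94 to 9.32 in the ret groups (difference -1.29 ± 0.22, adjusted p = 0.00898). Its probe set is of the x_at class, which can share probes with other transcripts. Of 14 cell division genes measured it was the 1 called different, and Mki67 had values of 0.85 and 0.78. Sdcbp2, a syntenin, rose by 1.93 against 0.26, and Mxra7 by 1.01 against -0.51. Control means of Mxra7 were 9.28 in the R26P model and 10.93 in the ret model, and mutant means were 10.29 and 10.41.

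R26P mutants alone lost Lamc1, the laminin gamma chain of the basement membrane, which was at 8.80, 8.95, 8.42 and 8.29 in R26P controls and 6.43, 7.36, 6.62 and 6.32 in R26P mutants. Ret controls (8.05 to 8.73) and ret mutants (8.01 to 8.67) covered the same range. The difference was 1.93 ± 0.34 (adjusted p = 0.0121) on this probe set and was lost when the probe sets of Lamc1 were averaged (adjusted p = 0.853), so the probe sets of the gene disagree. Lrp1, a large endocytic receptor of vessel wall and astrocytes, fell by 1.83 in R26P mutants against -0.39 in ret mutants (difference 1.45 ± 0.26, adjusted p = 0.013). With its probe sets averaged the difference was 1.14 and was not called (adjusted p = 0.06). Oaf fell by 2.73 without overlap against 0.03 in ret mutants, where the signals ran from 5.15 to 7.63. Its control means were 7.63 in the R26P model and 6.08 in the ret model. Btg2, an antiproliferative early response gene, fell by 1.12 against 0.85, with the call lost without ret control 1 (adjusted p = 0.052).

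Among the 42 genes that moved the same way by different amounts, the R26P effect was larger in 25 and the ret effect in 17. Some genes with a larger fall in R26P mutants ended at or near the bottom of the scale in both models. Of those given here, Pla1a and Ndufa4l2 belong to the pericyte list. Pla1a, a phospholipase, fell from 6.15, 6.18, 6.66 and 5.93 to 2.27, 2.17, 2.17 and 2.56 in the ret model and from 8.21, 8.28, 7.84 and 7.68 to 2.44, 2.26, 2.44 and 2.44 in the R26P model. The lowest value any of these arrays can show is 2.16. The mutants of both models were therefore at the floor, and the difference of 1.67 ± 0.23 (adjusted p = 0.0023) came with R26P controls that were about as much above ret controls. Grm3, a metabotropic glutamate receptor (difference 1.66), Ndufa4l2 (1.92) and the calcium-binding Hrc (1.24, called in R26P mutants alone) had the same layout, with mutants of both models at or near their lowest signal and R26P controls above ret controls. For such genes a fall that ends at the floor is a lower limit. Grm3 lay a little higher in ret mutants, at 2.59 to 3.46, than in R26P mutants, at 2.52 to 2.74.

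Astrocyte genes that fell further in R26P mutants did not reach the floor. Slc1a2, the glutamate transporter of astrocytes, was at 11.81, 12.47, 12.35 and 12.26 in ret controls and 10.41, 10.26, 10.57 and 10.42 in ret mutants, and at 12.27, 12.51, 12.42 and 12.29 in R26P controls and 9.64, 9.76, 9.83 and 9.81 in R26P mutants. Controls were alike, and all R26P mutants were below all ret mutants. The difference of 0.81 ± 0.17 (adjusted p = 0.026) was lost without R26P mutant 1 (adjusted p = 0.053), when probe sets were averaged (adjusted p = 0.216) and with the cerebellum arrays (adjusted p = 0.859). Mlc1, a membrane protein of end-feet, fell by 1.63 and 3.72 (difference 2.09 ± 0.52, adjusted p = 0.041), and this call was lost on leaving out any of 12 arrays in turn. Of 20 astrocyte genes, 13 were lower in each model and 11 in both.

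Among the 45 genes called different that had a group mean at or below 4, several were at the floor in every control. Mmrn1, multimerin of platelets and endothelium, was at 2.16 to 2.23 in ret controls and 7.49, 7.47, 5.31 and 7.72 in ret mutants, and at 2.16 to 2.75 in the 8 R26P arrays (difference 4.73 ± 0.55, adjusted p = 0.00081). Among the arrays compared here it was above 3, and above the filter level of 4, on the 4 ret mutants alone. On these arrays a gene at the floor in every control can pass the filter only through a rise in mutants. Its low control values are therefore partly set by how genes were kept, and are not a separate result. Spon2, a matrix protein of the spondin family, was at 2.16 on all 8 control arrays, at 6.99, 7.64, 6.85 and 6.68 in ret mutants and at 5.10, 4.12, 3.40 and 2.16 in R26P mutants (difference 3.35 ± 0.61, adjusted p = 0.013). Its rise was called in both. Apart from the ret mutants, Spon2 exceeded 4 only on the R26P mutants at 5.10 and 4.12, so the same limit applies. With no filter on low values the differences of Mmrn1 and Spon2 were still called. Alx1, a homeobox factor of craniofacial mesenchyme, was at 4.92, 5.18, 4.48 and 6.26 in R26P controls and between 2.16 and 2.55 on the 12 other arrays. With the R26P cerebellum arrays in place of cerebrum, its R26P effect was 0.00.

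Smoc2 and Ccr6 had large differences with weaker support. The matrix protein Smoc2 read 5.64, 7.28, 8.33 and 5.56 in ret mutants against 2.48 to 2.49 in ret controls, with 3.03, 4.72, 2.48 and 2.82 in R26P mutants (3.35 ± 0.78, adjusted p = 0.0345). Ccr6, a chemokine receptor, gave the widest spread, at 2.16 on 3 ret controls and 5.99 on the fourth, 7.79, 9.33, 6.06 and 10.30 in ret mutants, and 2.16, 4.40, 8.18 and 2.16 in R26P controls (7.31 ± 1.80, adjusted p = 0.041). These calls were lost on leaving out any of 11 and 9 arrays in turn. Among the arrays compared, Smoc2 exceeded the filter level of 4 only on ret mutants and on the R26P mutant at 4.72. With no filter on low values neither gene was called by limma (adjusted p = 0.0781 for Smoc2 and 0.0923 for Ccr6).

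Among genes with all group means above 4, a clock gene had the most negative difference. Ciart, a repressor in the circadian clock, read 6.69, 7.48, 7.35 and 4.86 in ret controls and 5.71, 5.07, 6.09 and 5.35 in ret mutants, but 5.53, 6.08, 4.66 and 4.27 in R26P controls and 6.67, 7.39, 7.36 and 7.14 in R26P mutants. Its effects were -1.04 and 2.01 (difference -3.04 ± 0.72, adjusted p = 0.0373), the ret groups overlapped, and the call was lost on leaving out any of 11 arrays in turn. Clock proteins of the Clock and Arntl pair bind the E-box CACGTG, and the stretch before the start of Ciart is shown for that reason, on the minus strand of GRCm38.p6 at chr3:95882229-95882358 from RefSeq, 5′ to 3′ and ending at the base before the start, with each CACGTG in capitals.
Ciart: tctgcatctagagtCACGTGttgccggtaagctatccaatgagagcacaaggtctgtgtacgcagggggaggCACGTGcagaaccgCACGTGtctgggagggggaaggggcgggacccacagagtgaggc
The stretch of 130 bases holds 3 matches, which read the same on both strands and do not overlap. Of 32851 promoters of the same table, 6.02% hold at least 1 match in the 250 bases before the start and 0.0609% hold 3 or more. A match is a description of the letters and says nothing of binding in these vessels.

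Other clock genes were looked up after the value of Ciart was seen. Dbp, an output gene of the clock, read 13.43, 14.22, 13.85 and 12.10 in ret controls and 12.87, 12.57, 13.32 and 12.43 in ret mutants, with 10.71, 12.97, 10.48 and 10.78 in R26P controls and 13.09, 13.80, 12.92 and 12.90 in R26P mutants. It rose by 1.94 in R26P mutants, and R26P control 2 lay within the range of the mutants while the other 3 controls lay below it. The differences were -2.54 for Dbp (adjusted p = 0.072), -2.67 for Per2 (0.092) and -1.47 for Nr1d1 (0.332), and 1.81 for Arntl (0.139), whose transcript cycles in antiphase to the others. None passed the threshold. Ret control 4 had the lowest Ciart, Dbp and Per2 and the highest Arntl of its group, and R26P control 2 the highest Ciart, Dbp and Per2 and the lowest Arntl of its own. The hour at which each animal was killed is not given in the labels used here, and its part in these values was not tested.

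The remaining genes with large differences and all group means above 4 had calls close to the threshold, which many of the arrays, left out in turn, ended. Colec11, a collectin, fell by 2.79 in ret mutants against 0.11 in R26P mutants, Lhx6, a LIM-homeobox factor, by 1.93 against 0.16, and the factor Zbtb7a by 1.39 against 0.16. Slco2a1, a prostaglandin carrier, rose by 1.35 in R26P mutants against -0.72, Ifitm10 rose by 2.32 against 0.37, and Gadd45b, a stress response gene, rose by 2.60 against 0.97, with both of its effects called. Spint2, a protease inhibitor, rose by 1.34 in ret mutants against -0.93, and the hydrolase Cmbl fell by 2.52 in R26P mutants against 0.58 in ret mutants. Adjusted p values for these 8 lay between 0.0345 and 0.0484. Each call was lost on leaving out any of 8 (Lhx6) to 15 (Cmbl) of the 16 arrays in turn. Ret controls 1 and 2 and R26P mutant 1 were among those arrays for every gene. R26P control means lay above ret control means for Spint2 (11.40 against 8.75) and Cmbl (6.70 against 4.23). They lay below them for Colec11 (5.39 against 7.03) and Zbtb7a (5.74 against 7.20). With probe sets averaged Spint2 (adjusted p = 0.0538) and Cmbl (0.0544) were not called by limma.

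Pathways were described by lists of their members, set against the shares of all genes. These shares were 8.90% higher and 10.3% lower in ret mutants, and 11.4% and 12.4% in R26P mutants. Shared genes made up 4.04% (higher) and 5.02% (lower) of all genes. Smooth muscle contractile genes fell in both, 16 of 20 in ret mutants, 17 in R26P mutants and 14 in both. Myh11, the smooth muscle myosin, fell by 1.55 and 1.88, and Tagln by 1.38 and 1.56. These counts depended on single arrays. The mean signal of the list was 7.84, 7.32, 7.17 and 8.60 in ret mutants against 8.67 to 9.63 in ret controls, and the shared count was 7 without ret mutant 3, ret control 2 or ret control 3 and 6 without ret mutant 2. Without the 7 arrays with Gh above 8, a fit that leaves 1 ret mutant and assumes that it varies like the other groups, it was 5 for smooth muscle, 5 for astrocytes and 21 for pericytes.

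Cholesterol synthesis genes were lower in ret mutants. Of 17 measured, 12 were lower in ret mutants and 5 in R26P mutants, all 5 shared, with medians of -0.59 and -0.22. The R26P count was 3 without R26P control 4 or R26P mutant 2 and 0 without the Gh arrays, where the ret count was 8. Idi1 and Fdps, enzymes that build the isoprenoid precursor, were called different. Idi1 was at 10.03 to 10.39 in ret controls, 8.68 to 9.12 in ret mutants, 9.69 to 10.16 in R26P controls and 9.46 to 9.63 in R26P mutants (difference -0.93 ± 0.17, adjusted p = 0.0142). Fdps read 7.38 to 7.49 and 6.03 to 6.87 in the ret groups against 6.98 to 7.36 and 7.03 to 7.21 in the R26P groups (difference -0.96 ± 0.20, adjusted p = 0.0237). Dhcr7, a late enzyme of the pathway, was called higher in R26P mutants at 0.72 with -0.29 in ret mutants, and was not called different.

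In the TGF-beta and bone morphogenetic protein list, 10 of 29 were higher and 4 lower in each model, with 7 shared higher and 1 shared lower. The falls stood near the shares of all genes, 10.3% in ret mutants, 12.4% in R26P mutants and 5.02% shared. The 4 falls of each model depended on single arrays, down to 1 without ret control 1, ret control 2, ret mutant 1 or R26P control 1. Both inhibitory Smads were called different, Smad6 as above and Smad7 with -0.38 in ret mutants and a rise of 0.48 in R26P mutants (adjusted p = 0.0384, lost on leaving out any of 12 arrays). The ligands Bmp4 (3.09 and 2.37) and Tgfb2 (1.44 and 2.11) rose in both. In the Notch list 7 of 20 were lower in ret mutants and 0 higher, against 4 lower and 4 higher in R26P mutants, and the 4 rises were 1 without R26P control 2, R26P mutant 1 or R26P mutant 2 and 0 without the Gh arrays. Notch3, the receptor of mural cells, fell by 3.27 and 2.41, and its target Heyl by 3.14 and 3.08. Jag2 fell by 0.81 in ret mutants and had a value of 0.04 in R26P mutants, and Hey1 rose by 0.74 in R26P mutants with -0.28 in ret mutants, neither called different.

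The arterial list had 8 of 20 higher and 2 lower in R26P mutants and 4 higher and 4 lower in ret mutants, with 2 higher in each without the Gh arrays. Over all genes 11.4% were higher and 12.4% lower in R26P mutants, and 8.90% and 10.3% in ret mutants. Besides Unc5b the arterial list held Sema3g, a semaphorin of arterial endothelium. It rose by 0.96 in R26P mutants with a value of 0.06 in ret mutants (adjusted p of the difference 0.0345, lost on leaving out any of 10 arrays). Edn1, endothelin, rose in both by 2.29 and 2.72. Among 26 barrier carriers and scaffolds 7 were lower in ret mutants, 10 in R26P mutants and 5 in both, or 1 in both without the Gh arrays. Mfsd2a, the lipid carrier of barrier endothelium, read 14.04, 13.96, 13.67 and 13.83 in ret controls and 11.47, 11.38, 11.31 and 11.56 in ret mutants, and 13.08, 13.47, 13.28 and 13.21 in R26P controls and 12.35, 11.74, 12.43 and 10.49 in R26P mutants. Mutants lay below controls in both models (5.45-fold and 2.84-fold), and the difference of -0.94 had an interval of -1.87 to 0.00 and was not called (adjusted p = 0.227). The glucose carrier Slc2a1 had values of -0.10 and 0.15.

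**Figure D4:**
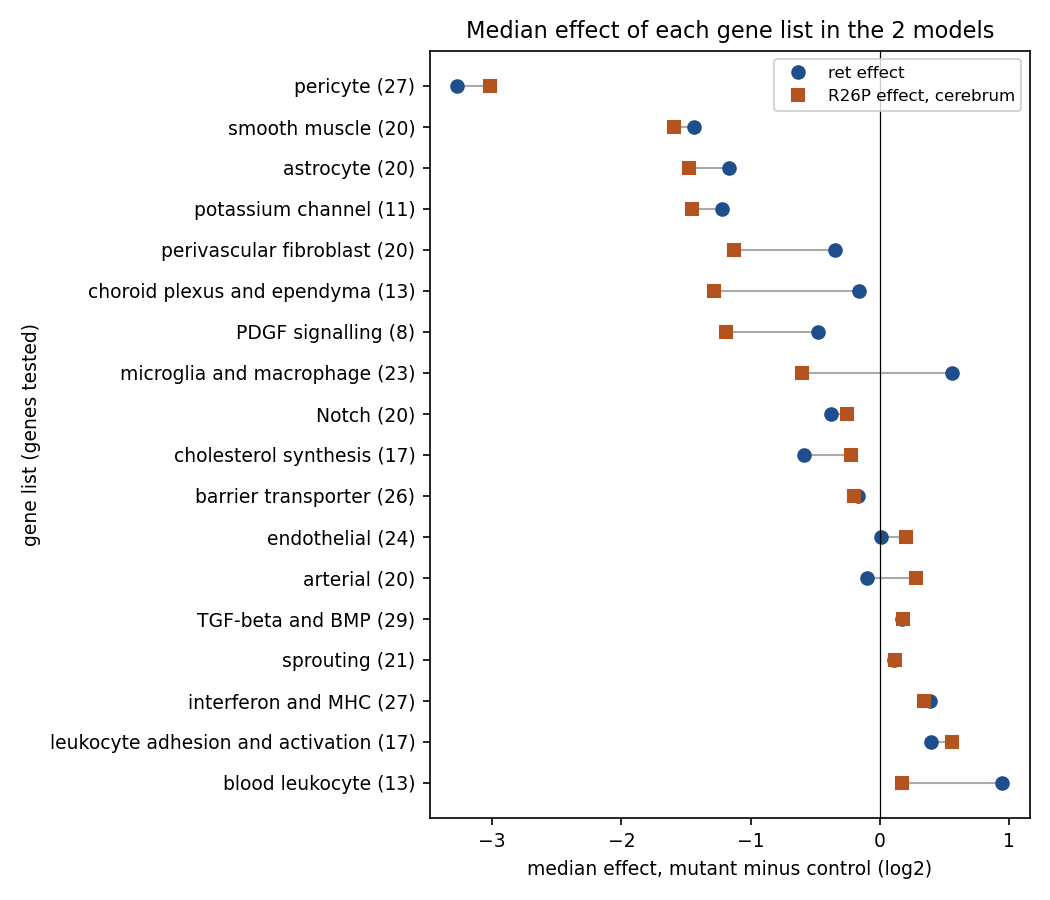
Median effect over the measured genes of 18 gene lists (number of genes in brackets) in ret mutants (circles) and R26P mutants (squares), as mutant minus control in log2 units. Pericyte, smooth muscle and astrocyte lists lie low in both models, and the microglia and macrophage list lies on opposite sides of 0 at 0.56 and -0.60.

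Microglia and macrophage genes had median effects on opposite sides of 0 in the 2 models, 0.56 in ret mutants and -0.60 in R26P mutants. Of 23 measured, 20 had a positive effect in ret mutants and 3 in R26P mutants, and in all 23 the ret effect was the more positive. In the limma test of the difference 0 passed after adjustment and 14 had an unadjusted p under 0.05. The share of all genes under that unadjusted p is not given, so such counts, here and below, have no baseline. By model, 3 were called higher in ret mutants and 4 lower in R26P mutants, and without the Gh arrays 0 and 0. Over all genes 8.90% were higher in ret mutants and 12.4% lower in R26P mutants. The counts of the list rested on single arrays. Without R26P mutant 4 there were 4 genes called different and 7 called lower in R26P mutants. Without R26P control 2 or R26P mutant 2 there was 1 called different. The R26P falls were 2 without any 1 of R26P controls 1, 3 and 4 and R26P mutants 1 and 3, and the ret rises were 1 without any 1 of ret controls 2 and 3, ret mutants 2, 3 and 4 and R26P control 4. The mean signal of the list was 9.84, 9.47, 9.31 and 9.55 in ret controls, 9.80, 10.18, 9.90 and 10.83 in ret mutants, 10.39, 9.53, 10.83 and 10.58 in R26P controls and 9.21, 9.62, 9.27 and 10.83 in R26P mutants, so the groups overlapped in both models. P2ry12, a purine receptor of microglia, came nearest, with 0.50 in ret mutants and a fall of 1.42 in R26P mutants (difference 1.92, 0.84 to 3.00, adjusted p = 0.052), and Tmem119 and Mrc1, markers of microglia and of perivascular macrophages, followed with 1.75 (adjusted p = 0.087) and 2.35 (0.088). Lyz2, lysozyme of myeloid cells, rose in both, by 2.64 and 1.34. The R26P rise was near the threshold (limma adjusted p = 0.034), with R26P mutant 4 at 13.11 and the other R26P mutants at 11.28 to 11.41. R26P controls ran from 9.68 to 10.92. With the cerebellum arrays the R26P value of Lyz2 was 0.32 and was not called (limma adjusted p = 0.643). P2ry12, Tmem119 and Mrc1 were chosen after their values were seen, and Lyz2 was named by the rule as a shared member of the list.

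Antigen presentation genes were among those that rose in ret mutants. Of 27 interferon and antigen presentation genes, 14 were higher in ret mutants and 5 in R26P mutants, 3 in both. In the limma test of the difference 0 passed after adjustment and 9 had an unadjusted p under 0.05. H2-Ab1, a chain of the class II complex that presents peptides to T cells, read 8.77, 10.07, 8.88 and 8.02 in ret controls and 10.86, 11.07, 11.01 and 12.50 in ret mutants, and 10.63, 10.32, 11.12 and 10.68 in R26P controls and 10.33, 10.90, 10.81 and 12.55 in R26P mutants. R26P controls were thus above every ret control. The ret effect was 2.43 and the R26P value 0.46 (difference 1.97, 0.45 to 3.49, adjusted p = 0.13). H2-Aa, the partner chain, and Cd74, the invariant chain, gave differences of 1.91 (adjusted p = 0.121) and 2.53 (0.0837). Without the Gh arrays the ret count of the list was 1 and the R26P count 2, and the R26P count was 3 without R26P control 3 or R26P mutant 4. Without R26P mutant 4, 3 genes of the list were called different.

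Some transcripts of blood leukocytes rose in both models. Of 13 measured genes 5 were higher in ret mutants and 2 in R26P mutants, both shared. Plac8 ran from 2.77 to 4.50 in ret controls, 7.96 to 10.15 in ret mutants, 2.77 to 5.14 in R26P controls and 8.34 to 11.28 in R26P mutants, and Cytip, an adaptor of leukocyte adhesion, rose by 4.80 and 4.15. With the cerebellum arrays the R26P values were 2.59 for Plac8, not called (adjusted p = 0.0831), and 2.53 for Cytip, and with probe sets averaged Cytip had 3.04 and 2.70. R26P mutant 4 was the highest array for both, and the list mean there was 8.80 against 6.76 to 6.97 in the other R26P mutants. Leaving out any 1 of ret controls 2, 3 and 4 and ret mutants 3 and 4 gave a ret count of 3, and without the Gh arrays it was 2, as was the R26P count. Without R26P mutant 4, 3 genes of the list were called different.

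**Figure D5:**
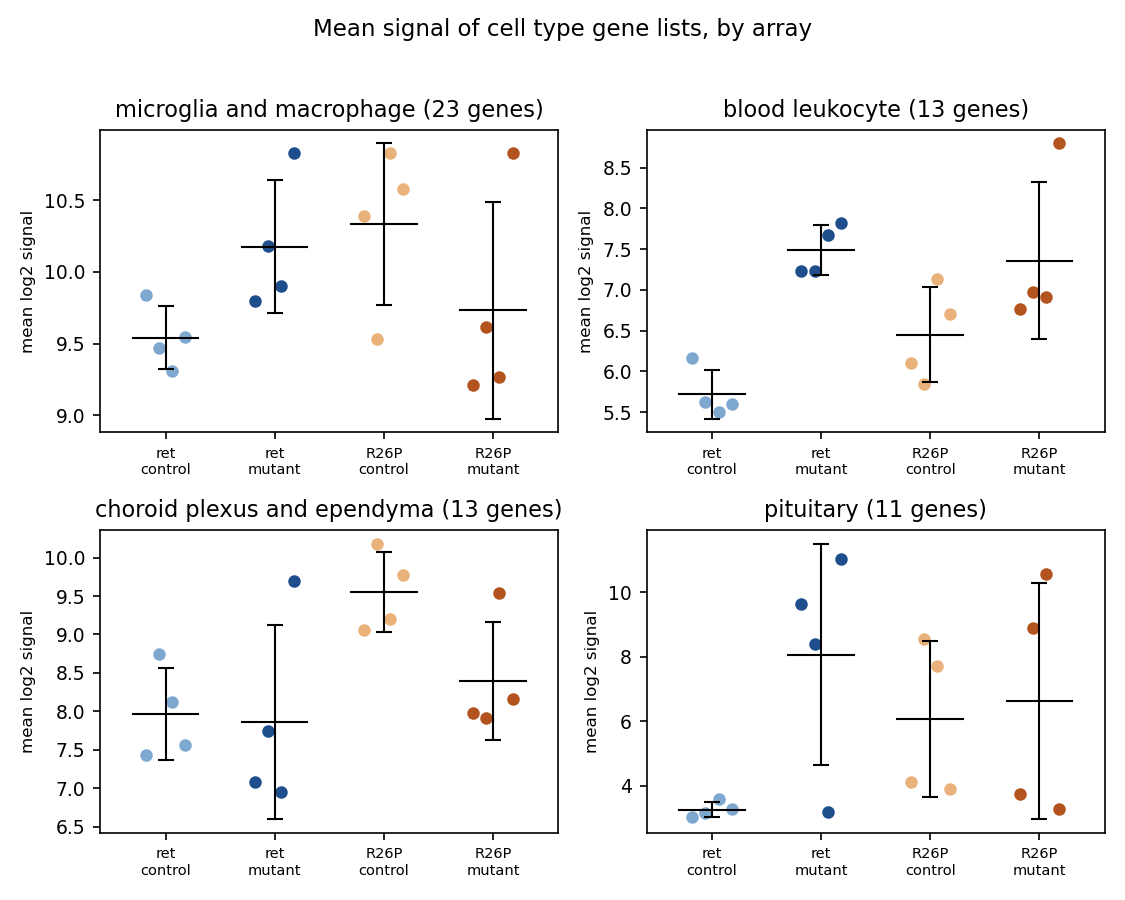
Mean log2 signal over the measured genes of 4 cell type lists on each of the 16 arrays (dots), by group, with the mean (line) and SD (bars, n = 4). Pituitary genes run from 3.18 to 11.05 in ret mutants and from 3.30 to 10.57 in R26P mutants and are low in all ret controls, leukocyte genes are higher in all ret mutants than in ret controls, and the groups of the R26P model overlap in all 4 lists.

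Other lists described tissue beside the vessel. Choroid plexus and ependymal genes had a more positive effect in ret mutants in 12 of 13, with medians of -0.16 and -1.28, and perivascular fibroblast genes in 16 of 20, with medians of -0.35 and -1.13. The limma test called 0 of these different, and 0 and 4 had an unadjusted p under 0.05. The list mean of choroid plexus genes ran from 6.95 to 9.69 over the ret mutants and from 7.92 to 9.54 over the R26P mutants. For pituitary RNA the checks were the fits without the Gh arrays and with a pituitary covariate. No fit addressed choroid plexus or fibroblast tissue, and its part in the differences between the models was not tested. Respiratory chain (30 genes) and ribosomal protein genes (16) had 0 called different by limma (2 and 0 at an unadjusted p under 0.05), with median differences of -0.04 and -0.13.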

How the data were processed

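RNA of brain microvascular fragments had been hybridised to Affymetrix mouse arrays. The deposited values are log2 signals that the authors made with GCRMA 2.6.0 under R 2.4.1, per the submitters' processing notes, a method that subtracts background by probe sequence, equalises the distribution of signals between arrays and summarises probe sets. Its lowest value on these arrays is 2.16. The values were used as deposited, and the number of arrays, 4 a group, limits the precision.

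Of 45101 probe sets, 34945 were paired with 1 gene (932 with several, 64 controls left out). One model with 4 group means was fitted to the 16 arrays with limma 3.58.1 in R 4.3.3 (lmFit, eBayes), with two-sided tests and Benjamini-Hochberg adjustment over the 11242 genes. Differences are in log2 units with the standard error or the 95% interval. The procedure was checked on simulated data.

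Named genes were the largest differences and shared effects each way, opposite genes, and the brightest called members of 34 gene lists. The members and lists were chosen with earlier results of these data known. The clock genes other than Ciart, the class II genes, P2ry12, Tmem119 and Mrc1 were chosen after their values were seen. Labels call the arrays biological replicates. Alternatives covered filters, probe sets, prior, normalization, weights, covariates, arrays left out and cerebellum arrays.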

Additional observations from a re-analysis of the deposited data

Results flagged for a closer look

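The test of the difference of effects itself called 376 genes, and each gene below is one of them, given with its ret effect minus its R26P effect in log2 units. The ret effect was more positive for Ccr6 (7.31), Pdgfb (7.00, the gene absent in R26P mutants), Mmrn1 (4.73), Dcdc2a (3.63), Cpxm2 (3.56), Gng2 (3.36), Spon2 (3.35), Smoc2 (3.35), Ror1 (3.31) and Cmbl (3.11). Positive differences were also called for Cdh11 (3.09), Oaf (2.75), Alx1 (2.72), Spint2 (2.27), Rnf180 (2.19), Khdrbs3 (2.18), Colec12 (2.13), Mlc1 (2.09), Btg2 (1.96) and Lamc1 (1.93). Smaller positive differences were called for Ndufa4l2 (1.92), Hhex (1.85), B4galt6 (1.78), Sox4 (1.72), Pla1a (1.67), Grm3 (1.66), Lrp1 (1.45), Mylip (1.35), Hrc (1.24) and Slc1a2 (0.81). The ret effect was more negative for Ciart (-3.04), Colec11 (-2.91), Lhx6 (-2.09), Slco2a1 (-2.07), Sox13 (-1.96), Ifitm10 (-1.95), Smad6 (-1.90), Sdcbp2 (-1.66) and Sstr4 (-1.65). Negative differences were also called for Gadd45b (-1.63), Zbtb7a (-1.54), Mxra7 (-1.53), Cd40 (-1.38), Cdc20 (-1.29), Unc5b (-1.28), Klf4 (-1.28), Lfng (-1.27) and Slc9a3r2 (-1.20). Smaller negative differences were called for Hyal2 (-1.19), Fdps (-0.96), Idi1 (-0.93), Sema3g (-0.90) and Smad7 (-0.86).

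Single arrays that stood apart from the other 3 of their group by Dixon's criterion were found in 32 of 368 groups (92 genes with 4 groups each), and chance flags about 5% of groups. In log2 signal these were Gng2 on ret control 2 (6.74), Ccr6 on ret control 4 (5.99), Cytip on ret control 1 (6.56), Plac8 on ret control 1 (4.50), Gh on ret control 2 (2.47), Xist on ret control 4 (2.32) and Eif2s3y on ret control 4 (9.49). Among R26P mutants these were Oaf on R26P mutant 1 (4.54), Ccr6 on R26P mutant 1 (2.16), Pla1a on R26P mutant 2 (2.26), Ndufa4l2 on R26P mutant 3 (3.20), Plac8 on R26P mutant 4 (11.28), Pecam1 on R26P mutant 1 (9.24) and Lyz2 on R26P mutant 4 (13.11). Among ret mutants these were Slco2a1 on ret mutant 3 (6.93), Mmrn1 on ret mutant 3 (5.31), Cdc20 on ret mutant 2 (9.32), Sema3g on ret mutant 3 (11.13), Vstm4 on ret mutant 4 (5.82), Cdh26 on ret mutant 4 (11.99), Gh on ret mutant 3 (2.84) and Xist on ret mutant 1 (2.32). Further ret mutant arrays were Eif2s3y on ret mutant 1 (9.43) and H2-Ab1 on ret mutant 4 (12.50). Among R26P controls these were Mxra7 on R26P control 4 (9.80), Mmrn1 on R26P control 3 (2.75), Btg2 on R26P control 2 (12.13), Ablim3 on R26P control 3 (6.35), Xist on R26P control 1 (2.32), Eif2s3y on R26P control 1 (9.11), Dbp on R26P control 2 (12.97) and Tmem119 on R26P control 2 (12.26). The Xist and Eif2s3y entries are the arrays whose sex differed from the rest of their group, and no explanation was weighed for the others.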

How the results depend on the processing

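Against 376 genes called different, 177 were called with no filter on low values, 733 with array weights, 103 with the pituitary genes as a covariate, 133 with the labelled sex as a covariate, 712 with R26P cerebellum arrays in place of cerebrum and 188 at a change of at least 2-fold. The pituitary covariate was the mean of Gh, Prl and Pomc. The sex label is contradicted by Xist and Eif2s3y on all 4 ret controls, and with Xist as the covariate 348 were called. Leaving out 1 array gave 127 to 611: 127 without ret control 1, 218 without ret control 2, 250 and 212 without ret mutants 2 and 4, 226, 226 and 243 without R26P controls 1, 2 and 3, and 176 and 611 without R26P mutants 1 and 4. Without the 7 arrays with Gh above 8, where the lone ret mutant left is assumed to vary like the other groups, 130 genes were called different, 473 shared, 1073 in ret mutants and 1192 in R26P mutants. At a change of at least 2-fold, 408 genes were shared, 764 called in ret mutants and 835 in R26P mutants. Under the other settings run, these counts stayed within 1.5 times. Arrays of the same replicate number did not pair, since their deviations correlated at -0.199 to 0.337, and with the number as a replicate block 68 genes were called different, and 32 of the 53 named genes were not. Of the 53, 10 kept the call under every setting in which they were tested, with Pdgfb, absent in R26P mutants, among them. The sign of the difference turned for Alx1 alone among named genes, to -0.17 with the cerebellum arrays. Of the shared genes named, 20 were followed through these fits, and all 20 kept both calls whichever single array was left out. Other shared genes given above, such as Lyz2 and Mfsd2a, were not among the 20. Values at the floor of 2.16 limit every fall that ends there. The causes of these shifts were not tested.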
